A study of Mus musculus with 12 samples.

Results

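The genes described here are Txnip, Arrdc4, Arrdc1, Arrdc2 and Arrdc3, which code for alpha-arrestins, and Mlxip, which codes for the glucose sensor MondoA. They were chosen by name as the alpha-arrestin family, without Arrdc5, and MondoA, with earlier results of these data known. They are 6 of the 49315 genes in the count tables. RNA was sequenced from mouse embryonic fibroblasts (MEFs), connective tissue cells grown from mouse embryos, after 24 h with an inhibitor of mTOR, the kinase that couples growth to nutrient supply. The groups, with 3 libraries each and 12 in all, were RapaLink-1 at 10 nM (rapamycin linked to an inhibitor of the mTOR kinase site), Torin1 at 250 nM (a competitor of ATP at the mTOR kinase), rapamycin at 20 ng/ml (which binds FKBP12 and, with it, mTOR complex 1), and the solvent DMSO. All cells were kept in DMEM with 10% FBS, and no strain, passage or genotype is given in the sources used here. The doses differ between the compounds, so a comparison of compounds is one of these doses only. Nothing in the labels says whether replicate libraries stem from separate cultures, and p-values therefore measure the spread between these samples alone, which may be technical.

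Alpha-arrestins are adaptor proteins with an arrestin fold. Most carry PPxY motifs that bind the WW domains of Nedd4 family ubiquitin ligases, and they bring these ligases to membrane proteins that are then ubiquitinated and taken into the cell. TXNIP, the thioredoxin-interacting protein, binds reduced thioredoxin and also promotes the uptake of the glucose transporters GLUT1 and GLUT4 from the cell surface, so that it lowers glucose entry. MondoA pairs with MLX, responds to glucose-6-phosphate, enters the nucleus and binds carbohydrate response elements, of which those in the promoters of TXNIP and ARRDC4 are the best known. mTOR has been reported to bind MondoA and to keep it from MLX.

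The promoters of Txnip and Arrdc4 are shown because these genes are the known MondoA targets among the alpha-arrestins and had the 2 largest fold rises of the 6 genes here. Each is the 250 bases just before the transcript start in RefSeq, on build GRCm38.p6, read 5′ to 3′ on the gene's strand, from chr3:96557707-96557956 on the plus strand for Txnip and chr7:68749239-68749488 on the minus strand for Arrdc4. Capitals mark the motifs found on either strand. In Txnip these are, in order, a CCAAT box read on the other strand, a FoxO site, a CCAAT box and a carbohydrate response element. In Arrdc4 they are 6 CCAAT boxes, with the E box as the third motif.
Txnip: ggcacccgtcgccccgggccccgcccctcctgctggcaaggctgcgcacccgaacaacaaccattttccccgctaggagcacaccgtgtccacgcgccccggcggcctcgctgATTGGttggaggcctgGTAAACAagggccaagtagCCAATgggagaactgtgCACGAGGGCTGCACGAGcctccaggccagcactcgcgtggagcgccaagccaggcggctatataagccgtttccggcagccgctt
Arrdc4: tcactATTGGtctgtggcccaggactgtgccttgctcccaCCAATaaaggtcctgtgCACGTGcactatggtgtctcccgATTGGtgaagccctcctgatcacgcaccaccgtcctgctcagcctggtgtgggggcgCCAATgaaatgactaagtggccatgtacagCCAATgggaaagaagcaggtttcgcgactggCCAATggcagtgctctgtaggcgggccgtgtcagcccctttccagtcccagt

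Motifs were searched as plain letters on both strands, and a match is a description of the letters, not of a bound site. The carbohydrate response element was taken as 2 E-box-like elements CACGNG spaced by 5 bases, and the window of Txnip held it from 85 to 69 bases before the start (3:96557872-96557888, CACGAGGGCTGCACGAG). It stood in 15 of the 32851 windows of all genes, which is 0.0457%. The window of Arrdc4 held no match to this pattern. The FoxO site GTAAACA of Txnip lay 121 to 115 bases before the start, and 3.17% of all windows held these letters. The E box CACGTG of Arrdc4 lay 193 to 188 bases before the start, and 6.02% of all windows held it. At least 6 CCAAT boxes, as in Arrdc4, were in 19 windows (0.0578%), and any CCAAT box was in 33.8%. The CLEAR element TCACGTGA, which contains the E box and marks lysosomal genes bound by TFEB, was in 0.785% of all windows and in none of the 8 windows of the 6 genes. Arrdc1 held none of the 5 motifs, Arrdc2 held 3 CCAAT boxes and Mlxip 2. Arrdc3 has 3 annotated starts, and a single CCAAT box was shared by 2 of their windows.

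All 6 genes passed the filter on low counts, with 144 to 5505 counts per library. Total counts were 30075870 to 36206209 in RapaLink-1 libraries, 31328365 to 37762480 in Torin1 libraries, 30495065 to 38809352 in rapamycin libraries and 34696405 to 39423703 in DMSO libraries. The coefficient of variation of a member over the 3 libraries of a group was 1.11% to 11.1%, and the error from counting alone was 1.39% to 7.68%. The labelled cell type was checked by its markers: 8 fibroblast genes summed to 18385 to 21280 CPM (counts scaled to a fixed library total, with TMM factors) over all groups. That sum hides opposite moves of abundant matrix genes. Fn1 averaged 8484 CPM with Torin1 and 4201 CPM with DMSO. Col1a1 went the other way, at 3541 and 5549 CPM, as did Col1a2, at 3953 and 7024 CPM. Lum, another gene of this list, did not exceed 1.42 CPM in any library. Markers of other cell types were low, and some moved with treatment. The 3 adipocyte markers summed to 21.1 to 21.7 CPM with RapaLink-1, 17.6 to 19.1 CPM with Torin1, 15.5 to 16.4 CPM with rapamycin and 14.5 to 16.1 CPM with DMSO. The 4 endothelial markers summed to 2.65 to 2.93, 2.32 to 2.48, 1.12 to 1.56 and 0.762 to 1.56 CPM in the same order, and the 5 epithelial markers to 21.7 to 22.3, 13.9 to 15.4, 9.55 to 11.2 and 14.4 to 15.3 CPM. A single gene carried most of each sum. Kdr averaged 2.46, 2.05, 0.929 and 0.859 CPM among the endothelial markers, and Krt19 21.4, 13.8, 10.0 and 14.5 CPM among the epithelial ones. No other epithelial marker averaged above 0.485 CPM in any group. The 4 leukocyte markers summed to 3.59 to 4.01 CPM with RapaLink-1, 3.90 to 4.15 CPM with Torin1, 2.19 to 3.52 CPM with rapamycin and 2.82 to 3.34 CPM with DMSO, so that RapaLink-1 and Torin1 lay above DMSO. Among them Csf1r averaged 1.16, 1.16, 0.545 and 0.365 CPM in this order, and Adgre1 was at 0 with RapaLink-1, rapamycin and DMSO. The Csf1r values are uncertain, since Hmgxb3, on the opposite strand, covers 17.8% of the Csf1r exon sequence. Hmgxb3 averaged 1954 counts per library, against 28.4 for Csf1r, and whether strand was used in counting is unknown. The 3 muscle markers summed to 0.298 to 0.411, 0.193 to 0.240, 0.140 to 0.202 and 0.149 to 0.167 CPM, with Myod1 and Myog at 0. The 2 pluripotency markers summed to 0.658 to 1.34, 0.801 to 1.13, 0.957 to 1.31 and 0.614 to 0.657 CPM, with Pou5f1 at 0 under the 3 inhibitors. The part of these cell types in the results below was not tested, and in bulk samples fewer cells of a type and less RNA per cell cannot be told apart.

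Txnip (ENSMUSG00000038393, GRCm38 3:96557957-96561883, plus strand) rose most of the 6 genes with every inhibitor. Its level was 147, 151 and 148 in the RapaLink-1 libraries, 124, 127 and 121 in the Torin1 libraries, 67.8, 67.9 and 66.6 in the rapamycin libraries, and 29.8, 29.2 and 30.9 in the DMSO libraries, all in CPM. No library of a group reached the values of another group, and the order was RapaLink-1, Torin1, rapamycin, DMSO. With RapaLink-1 it averaged 149 ± 1.90 CPM, against 30.0 ± 0.859 CPM with DMSO (SD, n = 3 each), a log2 fold change of 2.31 ± 0.03 (SE) or 4.96-fold, with an adjusted p of 5.31e-128 by edgeR's quasi-likelihood test. With Torin1 it averaged 124 ± 3.14 CPM, a log2 fold change of 2.05 ± 0.03 against DMSO (4.13-fold, adjusted p = 1.58e-118 by edgeR). With rapamycin it averaged 67.4 ± 0.747 CPM, a log2 fold change of 1.17 ± 0.03 against DMSO (2.25-fold, adjusted p = 2.15e-75 by edgeR). Among the 15917 genes tested, that rise had rank 149 from the largest with RapaLink-1, 337 with Torin1 and 344 with rapamycin. The gene's exons overlap those of the antisense gene Gm15441 over 606 of 3123 bases (19.4%), and whether counting used strand is not given in the sources used here. Gm15441 itself had 1 to 12 counts per library, against 981 to 5505 for Txnip.

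Arrdc4 (ENSMUSG00000042659, 7:68736995-68749241, minus strand), whose product is the alpha-arrestin closest to TXNIP and also lowers glucose uptake, showed the next largest rise. It stood at 14.3, 13.5 and 13.6 CPM with RapaLink-1, 16.0, 15.1 and 16.7 CPM with Torin1, 8.35, 7.83 and 7.94 CPM with rapamycin, and 4.68, 4.29 and 5.19 CPM with DMSO. The 4 groups did not overlap, and Torin1, not RapaLink-1, gave the highest values. The log2 fold change against DMSO was 1.54 ± 0.08 with RapaLink-1 (2.91-fold, adjusted p = 2.93e-44 by edgeR), 1.75 ± 0.08 with Torin1 (3.37-fold, adjusted p = 1.65e-52) and 0.77 ± 0.09 with rapamycin (1.70-fold, adjusted p = 8.1e-15). With at most 626 counts per library, its counting error was 4.26% to 7.68%, against 1.39% to 3.05% for Txnip.

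**Figure D1:**
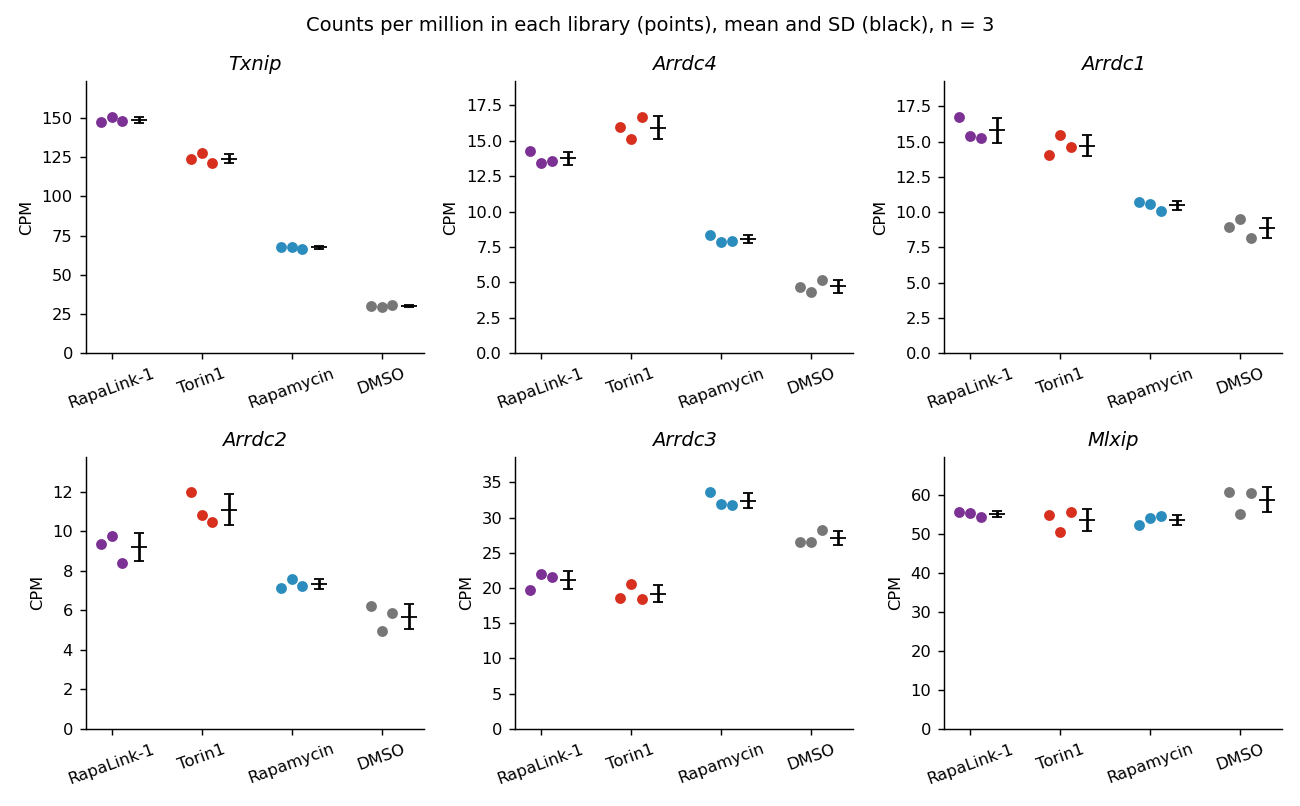
Level of each of the 6 genes (vertical axes, CPM, linear, from 0) in every library of the 4 groups (points), with the mean and SD of 3 libraries in black. Txnip, Arrdc4, Arrdc1 and Arrdc2 are higher in every inhibitor library than in any DMSO library, Arrdc3 is highest with rapamycin, and Mlxip stays between 50.4 and 60.7 CPM.

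Arrdc1 (ENSMUSG00000026972, 2:24925352-24935252, minus strand), whose product recruits TSG101 to the plasma membrane and drives the budding of small vesicles there, rose less. It had 16.8, 15.4 and 15.2 CPM with RapaLink-1, 14.1, 15.5 and 14.6 CPM with Torin1, 10.7, 10.6 and 10.1 CPM with rapamycin, and 8.93, 9.53 and 8.15 CPM with DMSO. The RapaLink-1 and Torin1 libraries overlapped each other and lay above those of rapamycin, which lay above DMSO. The log2 fold change against DMSO was 0.83 ± 0.07 with RapaLink-1 (1.78-fold, adjusted p = 3.14e-25 by edgeR), 0.73 ± 0.07 with Torin1 (1.66-fold, adjusted p = 6.98e-21) and 0.24 ± 0.07 with rapamycin (1.18-fold, adjusted p = 0.00195).

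Arrdc2 (ENSMUSG00000002910, 8:70835129-70839720, minus strand), a less studied member of the family, rose with each inhibitor as well. It had 9.37, 9.79 and 8.40 CPM with RapaLink-1, 12, 10.8 and 10.5 CPM with Torin1, 7.15, 7.61 and 7.20 CPM with rapamycin, and 6.2, 4.97 and 5.86 CPM with DMSO. No groups overlapped, and as for Arrdc4 the Torin1 libraries were highest. The log2 fold change against DMSO was 0.69 ± 0.08 with RapaLink-1 (1.61-fold, adjusted p = 1.54e-13 by edgeR), 0.95 ± 0.08 with Torin1 (1.94-fold, adjusted p = 2.9e-23) and 0.36 ± 0.09 with rapamycin (1.28-fold, adjusted p = 0.000161).

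Arrdc3 (ENSMUSG00000074794, 13:80883384-80896035, plus strand), whose product acts on beta-adrenergic receptors and on integrin beta 4, was the only one of the 6 genes to rise with one inhibitor and fall with another. It had 19.7, 22 and 21.6 CPM with RapaLink-1, 18.6, 20.6 and 18.4 CPM with Torin1, 33.6, 31.9 and 31.8 CPM with rapamycin, and 26.6, 26.5 and 28.2 CPM with DMSO. All rapamycin libraries lay above, and all RapaLink-1 and Torin1 libraries below, those of DMSO. The log2 fold change against DMSO was -0.36 ± 0.05 with RapaLink-1 (0.781-fold, adjusted p = 1.02e-11 by edgeR), -0.49 ± 0.05 with Torin1 (0.710-fold, adjusted p = 9.87e-19) and 0.26 ± 0.04 with rapamycin (1.2-fold, adjusted p = 6.09e-08). The difference between inhibitors was tested in itself: the log2 fold change against rapamycin was -0.62 ± 0.05 for RapaLink-1 (adjusted p = 4.7e-27 by edgeR) and -0.75 ± 0.05 for Torin1 (adjusted p = 2.12e-34).

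Mlxip (ENSMUSG00000038342, 5:123394798-123457932, plus strand), the gene of MondoA itself, changed least. It had 55.7, 55.3 and 54.2 CPM with RapaLink-1, 54.9, 50.4 and 55.5 CPM with Torin1, 52.2, 54.1 and 54.5 CPM with rapamycin, and 60.7, 55.2 and 60.5 CPM with DMSO. The DMSO libraries overlapped those of RapaLink-1 and Torin1, and DMSO replicate 2 lay below the other DMSO libraries. The log2 fold change against DMSO was -0.097 ± 0.03 with RapaLink-1 (0.935-fold, adjusted p = 0.00601 by edgeR), -0.14 ± 0.03 with Torin1 (0.910-fold, adjusted p = 0.000121) and -0.14 ± 0.03 with rapamycin (0.911-fold, adjusted p = 0.00019). These calls rest on the scaling: with upper-quartile factors the log2 fold change was 0.041 with RapaLink-1, -0.0095 with Torin1 and -0.072 with rapamycin, none of them past the threshold. Keeping only genes that averaged 5 CPM or more also ended the calls with RapaLink-1 (-0.011) and Torin1 (-0.045), and leaving out DMSO replicate 1 ended that with RapaLink-1 (-0.075).

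**Figure D2:**
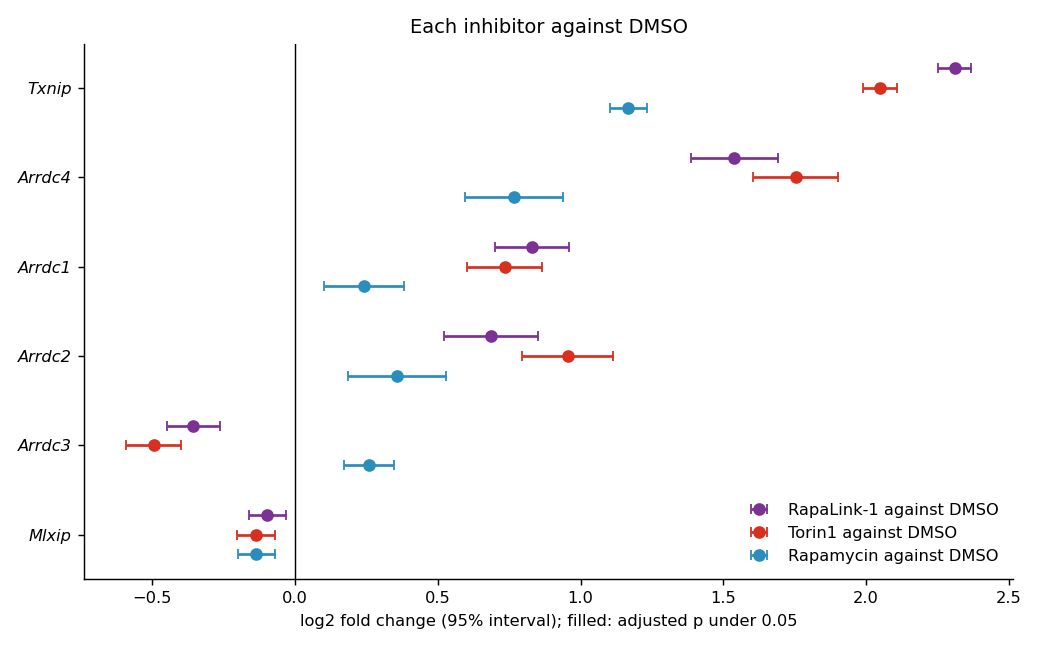
Log2 fold change of each gene against DMSO (horizontal axis) with its 95% interval for RapaLink-1, Torin1 and rapamycin. Txnip lies farthest to the right, from 1.17 to 2.31, the rapamycin point is the leftmost for Txnip, Arrdc4, Arrdc1 and Arrdc2, Arrdc3 lies on either side of 0, and the Mlxip points lie just below 0.

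Counted over the 6 genes, 4 rose and 2 fell with RapaLink-1, 4 rose and 2 fell with Torin1, and 5 rose and 1 fell with rapamycin. Most genes changed under these treatments: of the genes tested, 76.7% were called with RapaLink-1 (38.7% rose and 37.9% fell), 78% with Torin1 (39.8% rose and 38.3% fell) and 59.7% with rapamycin (27.5% rose and 32.2% fell). A call as such therefore says little of these genes. With upper-quartile scaling the split over all genes moved to 7629 higher and 4823 lower with RapaLink-1, from 6165 and 6036 as scaled here, and to 5481 higher and 4061 lower with rapamycin, from 4381 and 5127. The libraries did not overlap with those of DMSO for 5 genes with RapaLink-1, 5 with Torin1 and 6 with rapamycin, beside 77.6%, 78.5% and 63% of all genes. The median log2 fold change of the 6 genes was 0.76 with RapaLink-1, 0.84 with Torin1 and 0.31 with rapamycin, while that of all genes was 0.026, 0.039 and 0.0043. The 3 comparisons share the same DMSO libraries.

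Between the inhibitors, Txnip differed in every pair. Its log2 fold change was 0.26 ± 0.02 for RapaLink-1 against Torin1 (1.2-fold, adjusted p = 3.6e-20 by edgeR), 1.14 ± 0.03 for RapaLink-1 against rapamycin (adjusted p = 1.42e-90) and 0.88 ± 0.03 for Torin1 against rapamycin (adjusted p = 3.08e-73). RapaLink-1 and Torin1 both stood above rapamycin for Arrdc4, by 0.77 ± 0.07 and 0.99 ± 0.07 (log2), for Arrdc1, by 0.59 ± 0.06 and 0.49 ± 0.06, and for Arrdc2, by 0.33 ± 0.08 and 0.60 ± 0.08. The largest adjusted p among these 6 differences was 0.000118 (edgeR). For Mlxip no pair passed the test: the 95% interval of the log2 difference was -0.028 to 0.106 for RapaLink-1 against Torin1, -0.028 to 0.105 for RapaLink-1 against rapamycin and -0.068 to 0.066 for Torin1 against rapamycin. So 4 genes were higher and 1 was lower than with rapamycin under RapaLink-1, and likewise under Torin1. Among all genes, 65% were called for RapaLink-1 against rapamycin (32% higher and 33% lower) and 67.5% for Torin1 against rapamycin (34.2% higher and 33.2% lower). The libraries did not overlap for 5 of the 6 genes in each of these comparisons, beside 67.4% and 69.2% of all genes. Upper-quartile scaling moved the split for RapaLink-1 against rapamycin to 6296 higher and 4311 lower, from 5088 and 5260.

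RapaLink-1 and Torin1 were closer to each other, and 33.2% of all genes differed between them (16.7% higher and 16.4% lower with RapaLink-1), while 42.2% had libraries that did not overlap. Of the 6 genes, 2 were higher, 2 were lower and 3 did not overlap. Arrdc4 had a log2 fold change of -0.21 ± 0.06 for RapaLink-1 against Torin1 (adjusted p = 0.00274 by edgeR) and Arrdc2 of -0.27 ± 0.07 (adjusted p = 0.00175), both lower with RapaLink-1. Txnip, at 0.26, and Arrdc3, at 0.14 ± 0.05 (adjusted p = 0.0252), were higher with RapaLink-1. The libraries of Arrdc3 overlapped between these groups. For Arrdc1 the difference was 0.096 with a 95% interval of -0.023 to 0.214 (adjusted p = 0.232 by edgeR). Single libraries decided 3 of these calls: the adjusted p by edgeR was 0.0502 for Arrdc4 without Torin1 replicate 3 (log2 fold change -0.17) and 0.0595 for Arrdc2 without RapaLink-1 replicate 3 (-0.20). For Arrdc3 it was 0.0801 without Torin1 replicate 1, 0.132 without Torin1 replicate 3, 0.134 without RapaLink-1 replicate 2 and 0.0809 without RapaLink-1 replicate 3, with log2 fold changes of 0.11 to 0.13.

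**Figure D3:**
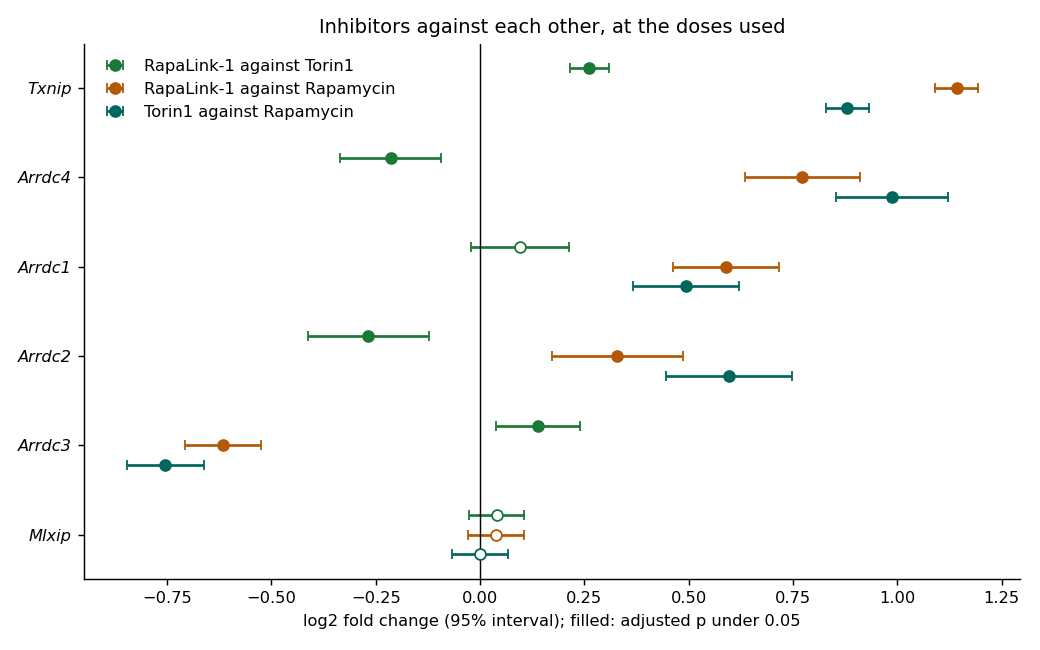
Log2 fold change of each gene between inhibitors at the doses used (horizontal axis) with its 95% interval, open where the adjusted p did not pass 0.05. Against rapamycin, RapaLink-1 and Torin1 lie to the right of 0 for Txnip, Arrdc4, Arrdc1 and Arrdc2 and to the left for Arrdc3, while all 3 Mlxip points are open.

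Levels of different genes were compared per length, as transcripts normalised for length and depth (TPM). Txnip was the most abundant of the 6 messages in every group, with 156 ± 1.91 TPM with RapaLink-1, 125 ± 2.76 TPM with Torin1, 71.5 ± 0.909 TPM with rapamycin and 30.3 ± 0.789 TPM with DMSO (SD, n = 3 each). Mlxip came next in every group, at 21.7 ± 0.296, 20.3 ± 1.11, 21.3 ± 0.637 and 22.3 ± 1.11 TPM in the same order, though its libraries overlapped those of Arrdc1 with RapaLink-1 (20.6 ± 1.12 TPM) and Torin1 (18.5 ± 0.921 TPM). The lower places changed. Arrdc3 took the third place with rapamycin (17.2 ± 0.429 TPM) and DMSO (13.6 ± 0.467 TPM), with Arrdc4 last at 6.59 ± 0.175 TPM with rapamycin and 3.68 ± 0.343 TPM with DMSO. With RapaLink-1 and Torin1, Arrdc4 stood at 11.2 ± 0.36 and 12.4 ± 0.673 TPM and Arrdc3 at 11 ± 0.657 and 9.68 ± 0.569 TPM, and the libraries of Arrdc4 and Arrdc3 overlapped with RapaLink-1. Arrdc2 had 9.31 ± 0.711 TPM with RapaLink-1 and 10.8 ± 0.724 TPM with Torin1, where it overlapped Arrdc3. The ratio of Arrdc4 to Arrdc3 TPM was 1.01 ± 0.0961 with RapaLink-1, 1.29 ± 0.136 with Torin1, 0.384 ± 0.0034 with rapamycin and 0.27 ± 0.0173 with DMSO.

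Summed over the 5 alpha-arrestins described here, the level was 208 ± 2.27 TPM with RapaLink-1, 177 ± 3.30 TPM with Torin1, 117 ± 1.59 TPM with rapamycin and 64.3 ± 1.02 TPM with DMSO, with no overlap between groups. Txnip made up 75.0% of that sum with RapaLink-1, 70.9% with Torin1, 61.3% with rapamycin and 47.1% with DMSO. The share of Arrdc3 was 5.30%, 5.47%, 14.7% and 21.2% in the same order. Without Txnip the sum was 52.1 ± 1.28 TPM with RapaLink-1, 51.4 ± 0.584 TPM with Torin1, 45.1 ± 0.871 TPM with rapamycin and 34 ± 0.326 TPM with DMSO. Most of the difference in the summed level thus came from Txnip. Txnip stood 14.2 ± 0.746 times above Arrdc3 in TPM with RapaLink-1 and 2.22 ± 0.0287 times with DMSO, and 7.20 ± 0.129 times above Mlxip with RapaLink-1 and 1.36 ± 0.0498 times with DMSO.

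**Figure D4:**
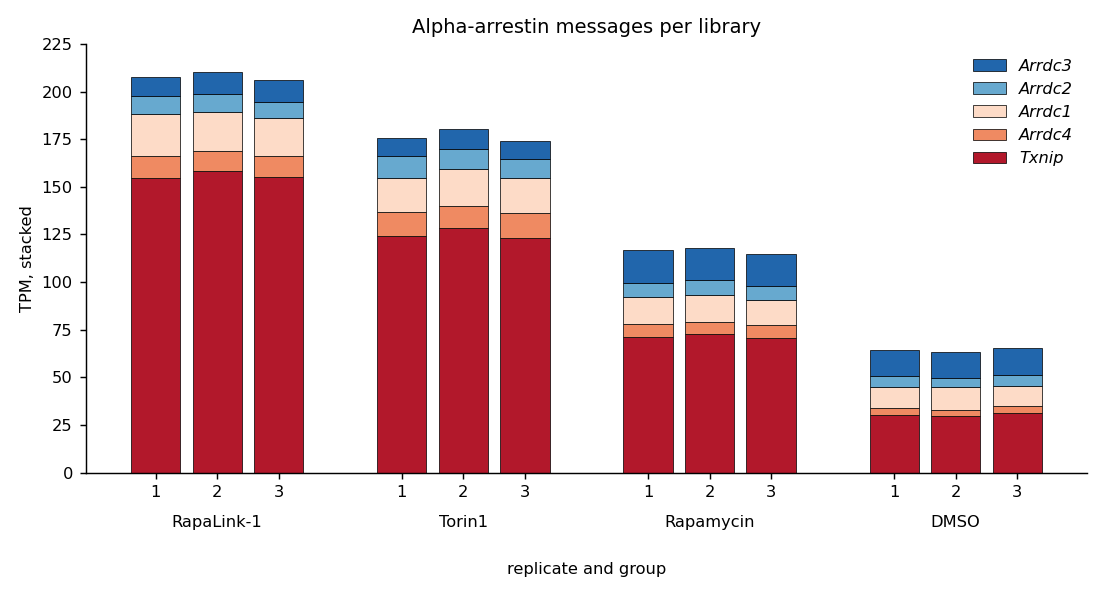
Stacked level of the 5 alpha-arrestins described here (vertical axis, TPM) in each of the 12 libraries. The sum is 208, 177, 117 and 64.3 TPM on average with RapaLink-1, Torin1, rapamycin and DMSO, and the Txnip segment at the base is the largest in every library.

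Mlx, the gene of MondoA's partner, fell with each inhibitor. It had 21.4, 20.1 and 21.5 CPM with RapaLink-1, 21.8, 20.9 and 21.1 CPM with Torin1, 29.1, 28.3 and 29.1 CPM with rapamycin, and 37.7, 34.2 and 35.6 CPM with DMSO, so every inhibitor library was below every DMSO library. Its log2 fold change was -0.77 ± 0.04, -0.76 ± 0.04 and -0.31 ± 0.04 against DMSO with RapaLink-1, Torin1 and rapamycin. It is uncertain, as it shares 19.3% of its exonic bases with the antisense gene Psmc3ip. Counts of list genes below stand beside the shares over all genes given above, 38.7% higher and 37.9% lower with RapaLink-1, 39.8% and 38.3% with Torin1, and 27.5% and 32.2% with rapamycin. Of the 4 tested genes of MLX and its partners other than Mlxip, 2 rose and 1 fell with RapaLink-1, 2 rose and 1 fell with Torin1, and 3 rose and 1 fell with rapamycin. Mnt, a repressor that pairs with MAX and MLX, rose by 0.87 ± 0.03, 0.95 ± 0.03 and 0.44 ± 0.03 (log2), and Mxd4 by 0.45 ± 0.03, 0.57 ± 0.03 and 0.79 ± 0.03. Mxd1 had log2 fold changes of -0.067 ± 0.08 and 0.030 ± 0.08 that did not pass with RapaLink-1 and Torin1, and rose by 0.42 ± 0.07 with rapamycin. Mlxipl, the gene of ChREBP, the sister protein of MondoA, had 0 to 3 counts per library and was not tested.

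Genes known as targets of MondoA or ChREBP in other settings, Txnip and Arrdc4 left out, did not move as a block. Of the 13 tested, 5 rose and 7 fell with RapaLink-1 (median log2 fold change -0.20), 5 rose and 7 fell with Torin1 (-0.81), and 3 rose and 8 fell with rapamycin (-0.29). Each median is the value of 1 gene in a split list, Pfkfb3 in the case of RapaLink-1. Compared directly, RapaLink-1 against Torin1 had a median of -0.021, with 2 higher, 4 lower and 7 not called. Over all genes 16.7% were higher and 16.4% lower. With upper-quartile factors Pfkfb3 lost its call with RapaLink-1 and was called higher with Torin1, and Gpd1 lost its call with Torin1. The 4 list genes with the smallest p all belong to fatty acid synthesis and fell with each inhibitor. Fasn, the fatty acid synthase, had log2 fold changes of -1.29 ± 0.02, -1.23 ± 0.02 and -0.45 ± 0.02 with RapaLink-1, Torin1 and rapamycin. Elovl6, which lengthens fatty acids, had -2.24 ± 0.03, -2.12 ± 0.03 and -0.64 ± 0.02, Scd1, a desaturase, -1.40 ± 0.02, -1.20 ± 0.02 and -0.49 ± 0.02, and Acaca, acetyl-CoA carboxylase, -1.24 ± 0.02, -1.22 ± 0.02 and -0.52 ± 0.02. In the other direction, Rgs16, a brake on G protein signals, rose by 1.80 ± 0.05, 1.62 ± 0.05 and 1.01 ± 0.06, and Klf10, a transcription factor, by 1.11 ± 0.03, 1.03 ± 0.03 and 0.26 ± 0.03. Both were named after their values were seen, and 10.1% of the exonic bases of Rgs16 overlap an antisense gene.

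Among genes of glucose entry and phosphorylation, 5 of 11 tested rose and 4 fell with RapaLink-1, 4 rose and 3 fell with Torin1, and 2 rose and 5 fell with rapamycin, with medians of 0.092, 0.10 and -0.26 (log2). Over all genes, 38.7% rose and 37.9% fell with RapaLink-1, 39.8% and 38.3% with Torin1, and 27.5% and 32.2% with rapamycin. Upper-quartile scaling gave 7 higher with Torin1 and 4 higher with rapamycin, and the limit of 5 CPM gave 2 lower with RapaLink-1 and 4 higher with rapamycin. Slc2a1, the gene of GLUT1, which TXNIP removes from the cell surface, fell in all 3: it averaged 79.1 ± 0.759 CPM with RapaLink-1, 85.7 ± 0.732 CPM with Torin1, 100 ± 3.58 CPM with rapamycin and 135 ± 1.37 CPM with DMSO. The groups did not overlap, and the log2 fold changes were -0.77 ± 0.03, -0.66 ± 0.02 and -0.43 ± 0.02. G6pdx, which opens the pentose phosphate pathway, had -0.84 ± 0.03, -0.84 ± 0.03 and -0.37 ± 0.03, with 13.6% of its exonic bases shared with the antisense gene Ikbkg. Hk2, a hexokinase that makes glucose-6-phosphate and that stands in the list of MondoA targets too, had 0.092 ± 0.03, 0.10 ± 0.03 and -0.44 ± 0.03, and Gpi1, the next enzyme of glycolysis, 0.21 ± 0.02, 0.24 ± 0.02 and -0.26 ± 0.02. For both, rapamycin was on the opposite side of DMSO from RapaLink-1 and Torin1.

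The thioredoxin system, the other known partner of TXNIP, was mostly lower. Of its 11 genes, all tested, 2 rose and 9 fell with RapaLink-1 (median log2 fold change -0.60), 2 rose and 8 fell with Torin1 (-0.58), and 2 rose and 7 fell with rapamycin (-0.15). Txn1, the thioredoxin that TXNIP binds, averaged 275 ± 7.70 CPM with RapaLink-1, 280 ± 3.47 CPM with Torin1, 474 ± 9.28 CPM with rapamycin and 544 ± 1.74 CPM with DMSO. Its log2 fold changes were -0.98 ± 0.02, -0.96 ± 0.02 and -0.20 ± 0.02. Srxn1, which restores overoxidised peroxiredoxins, had -1.22 ± 0.03, -1.43 ± 0.03 and -0.68 ± 0.03, Txnrd1, the thioredoxin reductase of the cytosol, -0.58 ± 0.02, -0.75 ± 0.02 and -0.29 ± 0.02, and Prdx1, a peroxiredoxin, -0.67 ± 0.02, -0.73 ± 0.02 and -0.15 ± 0.02. With upper-quartile scaling 1 of the 9 falls with RapaLink-1, that of Prdx2, became a rise.

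Alpha-arrestins recruit ubiquitin ligases and, in the case of ARRDC1, the ESCRT machinery. Of 11 Nedd4 family ligases and adaptors, 7 rose and 3 fell with RapaLink-1, 7 rose and 4 fell with Torin1, and 6 rose and 2 fell with rapamycin, with medians of 0.21, 0.29 and 0.087 (log2), beside 38.7% and 37.9%, 39.8% and 38.3%, and 27.5% and 32.2% of all genes. With upper-quartile factors only 1 was lower with RapaLink-1. Nedd4 rose by 0.21 ± 0.01 with RapaLink-1 and 0.42 ± 0.01 with Torin1, and had -0.0065 ± 0.01 with rapamycin, which did not pass. With upper-quartile factors the value of Nedd4 with rapamycin was 0.056 and passed (adjusted p = 7.76e-05 by edgeR). Smurf1 rose by 0.36 ± 0.02, 0.39 ± 0.02 and 0.13 ± 0.02, Smurf2 by 0.38 ± 0.02, 0.32 ± 0.02 and 0.18 ± 0.02, and Ndfip1, an adaptor that activates these ligases, by 0.34 ± 0.03, 0.29 ± 0.03 and 0.21 ± 0.03. Itch, a ligase that ubiquitinates TXNIP, had -0.087 ± 0.03, -0.18 ± 0.03 and -0.15 ± 0.03, of which the value with RapaLink-1 changed sign with upper-quartile scaling. Of 16 tested ESCRT genes, which cut off vesicles, 6 rose and 3 fell with RapaLink-1, 6 rose and 6 fell with Torin1, and 4 rose and 5 fell with rapamycin. Those counts rest on the scaling: with upper-quartile factors 14 rose and 1 fell with RapaLink-1, 10 rose and 3 fell with Torin1, and 8 rose and 2 fell with rapamycin. Tsg101, the partner of ARRDC1, had log2 fold changes of -0.052 ± 0.04, 0.0006 ± 0.04 and 0.013 ± 0.04, none past the threshold. With upper-quartile factors it was called higher with RapaLink-1 (0.085, adjusted p = 0.0256 by edgeR) and Torin1 (0.127, adjusted p = 0.000763). Of the 4 ESCRT genes with the smallest p, Mvb12b rose by 0.74 ± 0.04, 0.72 ± 0.04 and 0.37 ± 0.04. Hgs had 0.39 ± 0.03, 0.40 ± 0.03 and -0.069 ± 0.03, the last not past the threshold with upper-quartile factors. Pdcd6ip, the gene of ALIX, had -0.073 ± 0.02, -0.20 ± 0.02 and -0.15 ± 0.02, and its fall with RapaLink-1 became a rise with upper-quartile factors. Chmp4b fell by 0.23 ± 0.02 with Torin1 and had -0.14 ± 0.02 with RapaLink-1, a call lost with those factors, and -0.016 ± 0.02 with rapamycin, which did not pass. With upper-quartile factors the value of Chmp4b with rapamycin was 0.047 and just passed (adjusted p = 0.0494 by edgeR).

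Of 6 tested genes of other arrestin-fold proteins, 2 rose and 3 fell with RapaLink-1, 2 rose and 2 fell with Torin1, and none rose and 3 fell with rapamycin, beside 38.7% and 37.9%, 39.8% and 38.3%, and 27.5% and 32.2% of all genes. Only 1 was lower with RapaLink-1 under upper-quartile factors and likewise under the limit of 5 CPM. Arrb1, the gene of beta-arrestin 1, fell with Torin1 by 0.73 ± 0.07 on the log2 scale, had -0.21 ± 0.06 with RapaLink-1, a call lost with upper-quartile factors, and had -0.13 ± 0.06 with rapamycin, which did not pass. Vps26a, a retromer subunit, rose by 0.33 ± 0.02 and 0.27 ± 0.02 with RapaLink-1 and Torin1, and had -0.15 ± 0.02 with rapamycin. Vps26b, its close relative, had -0.28 ± 0.03, -0.25 ± 0.03 and -0.088 ± 0.03, the last lost with upper-quartile factors. Arrb2, the gene of beta-arrestin 2, had -0.10 ± 0.04, -0.033 ± 0.04 and -0.26 ± 0.04, of which the value with Torin1 did not pass and that with RapaLink-1 changed sign with those factors. With upper-quartile factors the value of Arrb2 with Torin1 was 0.094 and passed (adjusted p = 0.0148 by edgeR). Arrdc5, itself an alpha-arrestin but placed in this list, had 1 count over all 12 libraries. Among 9 tested genes of membrane proteins that alpha-arrestins are known to handle, 4 rose and 5 fell with RapaLink-1, 3 rose and 4 fell with Torin1, and 3 rose and 2 fell with rapamycin. With the limit of 5 CPM, 2 were higher and 2 lower with RapaLink-1, 2 lower with Torin1 and 1 lower with rapamycin, and with upper-quartile factors 1 was lower with rapamycin. Insr, the insulin receptor, rose by 0.52 ± 0.03, 0.51 ± 0.03 and 0.24 ± 0.04, F2r, a thrombin receptor, by 0.32 ± 0.02, 0.072 ± 0.02 and 0.40 ± 0.02, and Slc11a2, an iron transporter, had -0.49 ± 0.03, -0.33 ± 0.02 and -0.059 ± 0.02. The last of these, with rapamycin, was not past the threshold with upper-quartile factors.

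**Figure D5:**
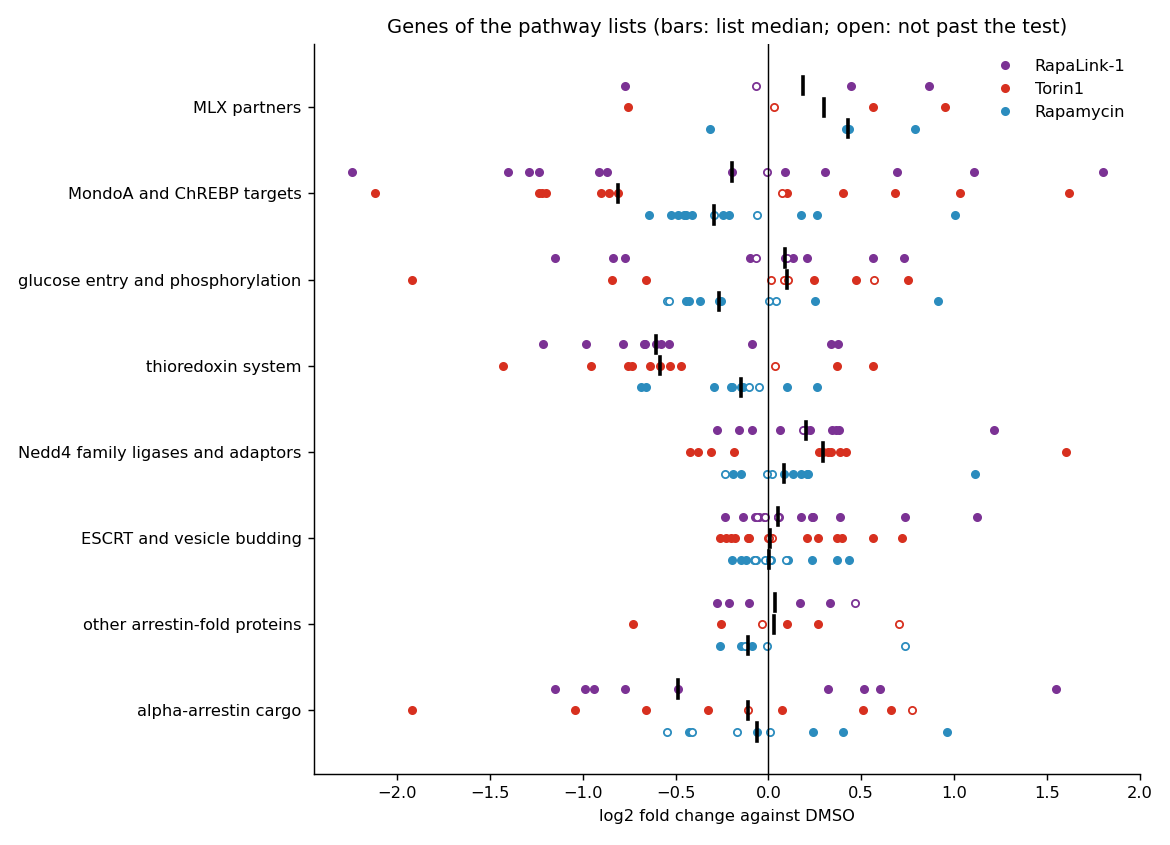
Log2 fold change against DMSO (horizontal axis) of the tested genes of each list, for RapaLink-1, Torin1 and rapamycin from top to bottom within a list, with bars at list medians and open points where the adjusted p did not pass 0.05. The thioredoxin medians lie at -0.60, -0.58 and -0.15, while those of ESCRT genes lie between 0.004 and 0.05.

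The genes whose pattern over the 12 libraries was most like that of a member were found by the root mean square difference of log2 CPM, each gene centred on its own mean, among 9160 genes that averaged 10 CPM or more. The 12 libraries share their 4 groups, so a small difference mainly says that the group means move alike, and no p is given. Nearest to Txnip were Mmp3, a matrix protease (0.058), Col20a1, a collagen (0.100), and Pim1, a kinase (0.111). Nearest to Arrdc4 were Flot1 (0.072), Thbs2 (0.075) and Stoml1 (0.085), and to Arrdc1 Slc36a1, a lysosomal amino acid transporter (0.058), Fnip1, a folliculin partner (0.059), and Tmem87b (0.067). Nearest to Arrdc2 were Ctxn1 (0.088), Filip1l (0.090) and Ankzf1 (0.092), and to Arrdc3 Pask (0.066), Oip5 (0.069) and Kdelr3 (0.071). Among the genes nearest to Mlxip were Taf6l (0.036) and Sipa1l3 (0.040). Ranked by Pearson's r instead, 1 of the 3 genes remained for each alpha-arrestin and 2 for Mlxip. No alpha-arrestin was among the 3 nearest genes of another, with Arrdc2 itself under the minimum level for this search.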

How the data were processed

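The authors deposited 1 table of raw read counts per library, made with featureCounts per the file headers. Trimmomatic 0.36, STAR 2.5.2b, Subread 1.5.2, DESeq2 and build GRCm38 appear in the submitters' processing notes. How strand and reads with several matches were handled, and with which annotation release, is not given in the sources used here. Libraries were made with the NEBNext Ultra RNA kit from column-purified total RNA, per the labels' protocols. Symbols came from GENCODE M21, which held 48970 of the IDs. Of 128 listed symbols, 126 matched by symbol and 1 by a synonym, and Vps28 was not analysed here.

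The test was edgeR 4.0.16 (R 4.3.3) on the raw counts. filterByExpr by group kept 15917 genes, libraries were scaled by TMM, and all 12 entered a robust quasi-likelihood fit with group as its only term (8 residual degrees of freedom, biological coefficient of variation 1.48%). The 6 contrasts between groups were tested two-sided, adjusted by Benjamini-Hochberg over all genes tested and called at an adjusted p under 0.05. For 3 libraries against 3, the lowest p of an exact permutation test is 0.1. CPM used TMM-scaled library sizes. TPM used the deposited exonic lengths. SEs were read from the log2 fold change and the F statistic. The fit was also run on simulated counts, drawn with its own estimate of the spread and with few genes changed. Against DMSO most genes were called, so that run cannot test the scaling, and its outcome is not given here.

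Alternatives were DESeq2 size factors, upper-quartile scaling, no filter, a mean of at least 5 CPM, DESeq2 1.42.0, limma 3.58.1 voom, only the 6 libraries compared, a replicate block and leaving out each library. Replicate numbers come from the titles. Deviations of same-numbered libraries correlated by -0.051 to 0.065, and those of differently numbered libraries by -0.071 to 0.047. No pairing by number was seen, which does not exclude a weak one. Replicate pairs had a chi-square per degree of freedom of 1.34 to 2.06, so no library looked deposited more than once.

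The members and gene lists were chosen with earlier results of these data known. All 6 members are named, with the 3 genes most like each, up to 4 genes of each list with the smallest p against DMSO, and Mlx, Mlxipl, Txn1, Slc2a1, Nedd4, Itch, Tsg101, Hk2 and Arrdc5 for their role. Rgs16, Klf10, Pfkfb3, Gpd1 and Prdx2 were added after their values were seen. One result of this rule is not reported here. Promoter windows are RefSeq's on GRCm38.p6, searched over 250 bases before the start.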

Additional observations from a re-analysis of the deposited data

Results flagged for a closer look

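Arrdc3 moved in opposite directions under different inhibitors, and the difference was tested by the contrast between them. Its log2 fold change was -0.62 for RapaLink-1 against rapamycin, with 19.7 to 22 CPM against 31.8 to 33.6 CPM, and -0.75 for Torin1 against rapamycin, with 18.4 to 20.6 CPM against the same rapamycin libraries. Neither pair of groups overlapped. No other gene of the 6 met this condition.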

How the results depend on the processing

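Against DMSO, Txnip, Arrdc4, Arrdc1, Arrdc2 and Arrdc3 kept direction and call under all 14 alternatives run for each comparison. Pooled over the inhibitors, that makes 42 values per gene. Upper-quartile scaling moved the median of all genes by 0.14 with RapaLink-1 and 0.13 with Torin1 against DMSO (log2), and 0.063 with rapamycin. Under that scaling, with the shift included, the log2 fold change of Mlxip was 0.041 with RapaLink-1 (sign turned, adjusted p = 0.254 by edgeR), -0.0095 with Torin1 (0.799) and -0.072 with rapamycin (0.0510). These moves were about as large as the shift itself. With a mean of at least 5 CPM it was -0.011 with RapaLink-1 (0.758) and -0.045 with Torin1 (0.209). Leaving out each library gave -0.14 to -0.075 with RapaLink-1. Over all alternatives its adjusted p was 0.000256 to 0.758 with RapaLink-1, 3.28e-06 to 0.799 with Torin1 and 6.53e-06 to 0.0510 with rapamycin. For RapaLink-1 against rapamycin Mlxip passed with upper-quartile scaling (0.11). For Torin1 against rapamycin, where it never passed, its sign turned with upper-quartile scaling (0.063), the mean of at least 5 CPM (0.033), the replicate block (0.00061) and single libraries left out (-0.050 to 0.022). For RapaLink-1 against Torin1, leaving out libraries gave -0.25 to -0.17 for Arrdc4, -0.31 to -0.20 for Arrdc2 and 0.11 to 0.20 for Arrdc3. Over all alternatives the adjusted p was 0.00173 to 0.0502 for Arrdc4, 0.00143 to 0.0595 for Arrdc2 and 0.0035 to 0.134 for Arrdc3.

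The replicate block changed no call. Txnip stayed at 2.05 with Torin1 against DMSO under it.

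Counts of list members moved as follows. Upper-quartile scaling, with RapaLink-1, left 1 Nedd4 family gene and 1 other arrestin-fold gene lower, and 14 ESCRT genes higher and 1 lower. With Torin1 it gave 7 glucose genes higher, and 10 ESCRT genes higher and 3 lower. With rapamycin it gave 4 glucose genes higher, 8 ESCRT genes higher and 2 lower, and 1 cargo gene lower. The mean of at least 5 CPM gave 2 glucose genes lower, 1 other arrestin-fold gene lower, and 2 cargo genes higher and 2 lower with RapaLink-1, 2 cargo genes lower with Torin1, and 4 glucose genes higher, 2 ESCRT genes lower and 1 cargo gene lower with rapamycin. The DESeq2 test gave 2 glucose genes lower with RapaLink-1. Using only the 6 libraries compared gave 3 ESCRT genes and 1 cargo gene lower with rapamycin. Leaving out libraries gave 2 to 4 glucose genes lower (lowest without DMSO replicate 3) and 3 to 5 cargo genes lower (without RapaLink-1 replicate 2) with RapaLink-1. With rapamycin it gave 3 to 6 ESCRT genes lower (lowest without rapamycin replicate 2), 0 to 1 other arrestin-fold genes higher (highest without DMSO replicate 1) and 1 to 3 cargo genes lower (lowest without rapamycin replicate 1 or DMSO replicate 2 or 3). The cause of these moves was not tested. Counting error limits Arrdc2 and Arrdc4 most.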
